A study of Mus musculus with 21 samples.

Results

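The genes described here are 10 targets and feedback regulators of WNT signalling: Sp5, Axin2, Lef1, Tcf7, Notum, Dkk1, Nkd1, Rnf43, Znrf3 and Lgr5. They were chosen by name, and all 10 are listed in each of 21 libraries, among 32285 genes in the tables of a time course and 25239 in the tables of a Cyp26a1 set. WNT ligands bind Frizzled and LRP receptors, which halts the destruction complex of AXIN, APC, CK1 and GSK3. β-catenin then accumulates and acts with TCF and LEF factors in the nucleus. Most of the genes described here are induced by that step and then restrain it, so they are widely read as a record of β-catenin activity. In mouse embryonic stem cells (ESCs) the GSK3 inhibitor CHIR99021 keeps β-catenin high and helps to maintain self-renewal.

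Polyadenylated RNA was sequenced from ESCs in 7 groups of 3 libraries. In the time course, wild type ESCs on gelatin with serum, LIF, 1 µM of the MEK inhibitor PD0325901 and 3 µM CHIR99021 were taken at 0 h (ESC_0h, the state with CHIR99021). Other wild type cells went without LIF and both inhibitors for 12 h (noRA_12h) or 24 h (noRA_24h), or were exposed to 2 µM retinoic acid (RA) for 12 h (RA_12h) or 24 h (RA_24h). In the Cyp26a1 set, wild type and Cyp26a1 knockout ESCs lost LIF and both inhibitors and received 2 µM RA for 24 h (WT_RA24h, KO_RA24h). Cyp26a1 encodes an enzyme that breaks down RA. Whether the time course cells given RA also lost LIF and the inhibitors is not in the labels. They name no knockout clone, and leave unsaid whether the numbered replicates were separate cultures. No group stayed in LIF and inhibitors for 12 h or 24 h, so withdrawal and time in culture cannot be told apart.

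Levels are in TPM, a transcript abundance scaled for gene length and library size. A change is the difference between group means of log2(TPM + 1), given with its standard error (SE), and for a low gene it is smaller than the TPM ratio. Calls were made at a limma p adjusted over all genes tested (adjusted p) below 0.05. The 2 sets were tabulated with different gene models and are never compared in level. A listed 0 need not mean absence, since the housekeeping gene Hprt was listed at 0 in 3 of 15 time course libraries and reached 1.14 TPM at most. The tables stand for 2.96 to 3.91 aligned gigabases a library (time course) or 2.72 to 3.24 (Cyp26a1 set). The 6 ESC markers (Pou5f1, Nanog, Sox2, Zfp42, Esrrb and Sall4) averaged at least 1 TPM in every group, and Cyp26a1 stood at 585 to 606 TPM in the wild type and 4.03 to 4.93 TPM in the knockout. Some libraries stood apart from others of their group over all genes. On the main axis of spread within groups, RA_24h library 2 scored 51.6 against -16.9 and -29.5, noRA_12h library 1 scored 31.8 against -43.5 and -13.5, and KO_RA24h library 3 scored 35.6 against -22.7 and -15.3. Results on the 10 genes that rest on these libraries are given with and without them.

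The genes lie on 6 chromosomes of mm10. Sp5 (ENSMUSG00000075304) is at chr2:70474923-70477729, Lef1 (ENSMUSG00000027985) at chr3:131110471-131224356 and Dkk1 (ENSMUSG00000024868) at chr19:30545863-30549665. Axin2 (ENSMUSG00000000142, chr11:108920349-108950783), Notum (ENSMUSG00000042988, chr11:120653788-120661175) and Tcf7 (ENSMUSG00000000782, chr11:52252371-52283331) share chromosome 11 with Rnf43 (chr11:87662722-87735539) and Znrf3 (chr11:5276324-5444847). Nkd1 is at chr8:88521354-88594884 and Lgr5 at chr10:115450311-115587780. RefSeq promoter sequence (GRCm38.p6) was at hand for 7 of the 10, in 12 windows of 250 bases before a transcript start, and not for Notum, Znrf3 and Lgr5. The windows were searched on both strands for 4 core words to which TCF and LEF factors are known to bind, namely the word CTTTGAA, the word CTTTGAT, the word CTTTGTA and the word CTTTGTT. The Sp5 and Axin2 windows are shown because both genes fell after withdrawal, and a stretch of the Dkk1 window because it holds a pair of words. Words found are in capitals, and each sequence reads 5′ to 3′ on its gene's strand.
Sp5 (chr2:70474673-70474922, plus strand): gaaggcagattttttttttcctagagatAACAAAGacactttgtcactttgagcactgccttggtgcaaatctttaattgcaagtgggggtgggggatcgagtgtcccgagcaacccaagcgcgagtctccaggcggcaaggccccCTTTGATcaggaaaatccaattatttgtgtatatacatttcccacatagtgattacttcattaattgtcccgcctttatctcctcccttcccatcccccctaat
Axin2 (chr11:108920099-108920348, plus strand): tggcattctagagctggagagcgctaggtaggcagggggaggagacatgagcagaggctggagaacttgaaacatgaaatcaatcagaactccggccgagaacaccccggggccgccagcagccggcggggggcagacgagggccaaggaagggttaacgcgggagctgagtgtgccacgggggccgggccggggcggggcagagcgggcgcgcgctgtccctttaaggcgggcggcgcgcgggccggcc
Dkk1 (chr19:30549588-30549613, minus strand): CTTTGAAatcccatcccggCTTTGTT
The Sp5 window holds 2 words, CTTTGTT on the minus strand 222 to 216 bases before the start and CTTTGAT on the plus strand 104 to 98 bases before it. In Dkk1, CTTTGAA lies 117 to 111 and CTTTGTT 98 to 92 bases before the RefSeq start, inside an exon of the GENCODE M21 model. One of 4 Lef1 windows holds CTTTGTA, and none of the 4 words is in the windows of Axin2, Tcf7, Nkd1 and Rnf43. Of all 32851 windows in the table, 14.84% hold at least 1 of the words and 1.428% at least 2. A match describes letters only, and the Axin2 window shows only that these words are not in its 250 bases.

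**Figure D1:**
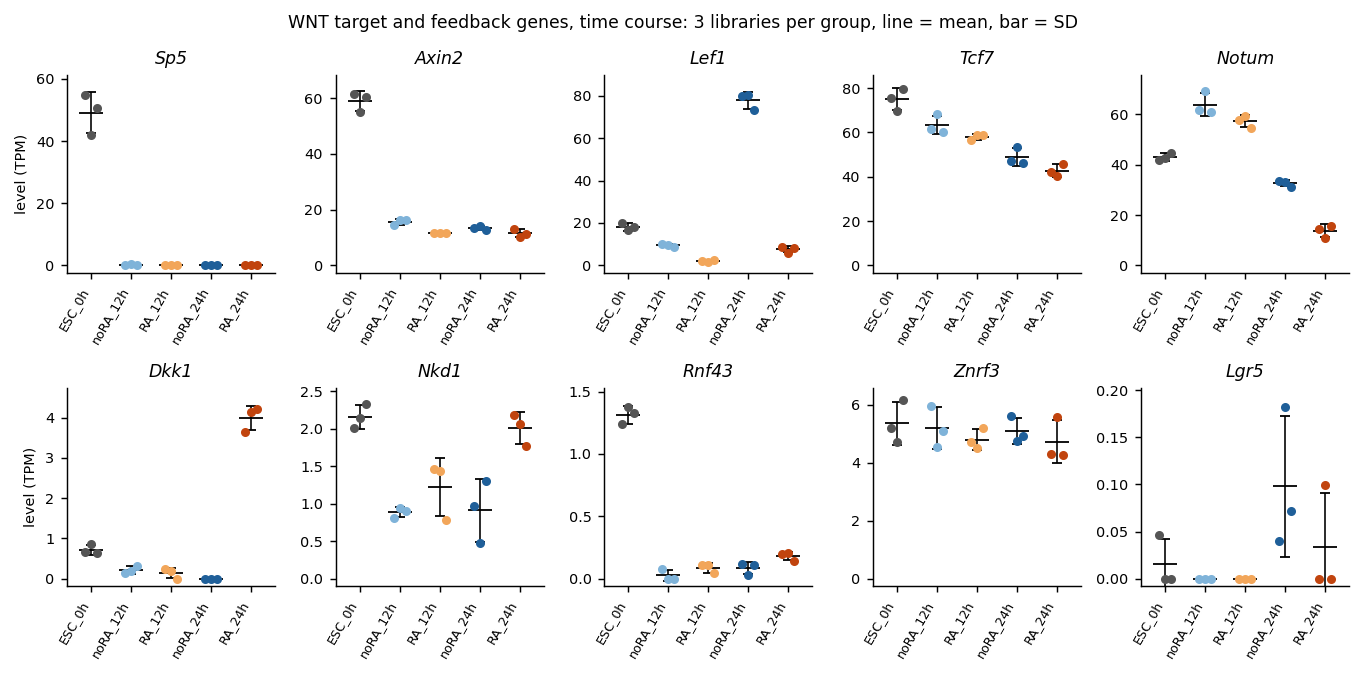
Level in TPM (vertical axis, a separate linear scale per gene) of the 10 genes in each time course library (points), with the group mean (line) and SD (bar), n = 3. Sp5, Axin2 and Rnf43 are high in ESC_0h alone, Lef1 peaks in noRA_24h, and Dkk1 in RA_24h.

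Withdrawal of LIF and the inhibitors without RA was compared with ESC_0h to ask how these genes stood once CHIR99021 was gone. LIF and PD0325901 were removed with it, so the parts of these factors cannot be told apart. Sp5, the gene for a zinc finger factor and a direct target of β-catenin, stood at 54.9, 42.1 and 50.5 TPM in ESC_0h. The noRA_12h libraries listed 0.15, 0.33 and 0 TPM, and the noRA_24h libraries 0.10, 0.09 and 0 TPM. Every later library thus lay below the lowest ESC_0h library, and the change was -5.43 (SE 0.14, adjusted p = 8.30e-12) at 12 h and -5.55 (SE 0.14, adjusted p = 4.23e-12) at 24 h. Rnf43, which encodes a ubiquitin ligase that removes Frizzled from the surface, went the same way at a much lower level. ESC_0h libraries read 1.24, 1.38 and 1.33 TPM, those of noRA_12h 0.08, 0 and 0 TPM, and those of noRA_24h 0.12, 0.03 and 0.11 TPM. Its changes were -1.17 (SE 0.09, adjusted p = 2.69e-07) and -1.09 (SE 0.09, adjusted p = 3.95e-07). Sp5 and Rnf43 passed the filter on low values only through ESC_0h, so the filter itself required them to differ.

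Axin2, the scaffold that rebuilds the destruction complex, fell too and stayed well above the low genes. Its libraries read 61.6, 55.1 and 60.6 TPM in ESC_0h, 14.4, 16.3 and 16.2 TPM in noRA_12h, and 13.3, 14.1 and 12.6 TPM in noRA_24h. The 12 h mean was 26.4% and the 24 h mean 22.6% of the ESC_0h mean, with changes of -1.85 (SE 0.09, adjusted p = 4.11e-09) and -2.07 (SE 0.09, adjusted p = 1.11e-09). Nkd1, which encodes a cytoplasmic antagonist that binds Dishevelled, went from 2.01, 2.14 and 2.33 TPM to 0.81, 0.94 and 0.91 TPM at 12 h and 0.96, 0.47 and 1.30 TPM at 24 h. No Nkd1 library without LIF and inhibitors reached the lowest ESC_0h library, and the changes were -0.74 (SE 0.16, adjusted p = 0.00250) and -0.75 (SE 0.16, adjusted p = 0.00187). With the GC and length correction and a replicate block together, the 24 h change of Nkd1 was -0.51 with an adjusted p of 0.0611.

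The genes for the DNA-binding partners of β-catenin had different courses. Tcf7, the gene for TCF1, declined in small steps, from 75.3, 69.8 and 79.8 TPM in ESC_0h to 61.4, 68.2 and 60.4 TPM in noRA_12h and 46.9, 53.5 and 46.2 TPM in noRA_24h. The 24 h change was -0.61 (SE 0.08, adjusted p = 2.15e-05). The 12 h change was -0.24 (SE 0.08, adjusted p = 0.0232), and this call was not stable. Its adjusted p was 0.0583 without ESC_0h library 1, 0.0992 without ESC_0h library 3, 0.0604 without noRA_12h library 1, 0.0894 without noRA_12h library 3, 0.108 with median-of-ratios scaling and 0.0660 with only these groups in the model. Lef1, by contrast, first fell and then rose. Its libraries read 20.2, 16.5 and 17.9 TPM in ESC_0h, 10.2, 9.60 and 8.69 TPM in noRA_12h, and 79.7, 80.4 and 73.3 TPM in noRA_24h. The 12 h mean was 52.1% of the ESC_0h mean (change -0.87, SE 0.13, adjusted p = 1.16e-04) and the 24 h mean was 4.27-fold higher (change 2.04, SE 0.13, adjusted p = 2.84e-08). Lef1 was the only one of the 9 tested genes called higher than ESC_0h in noRA_24h.

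Of the secreted inhibitors, Notum encodes an enzyme that strips the lipid from WNT ligands, and Dkk1 encodes a protein that blocks the LRP receptors. Notum read 41.7, 42.6 and 44.7 TPM in ESC_0h, 61.6, 69.3 and 60.8 TPM in noRA_12h, and 33.5, 33.0 and 31.3 TPM in noRA_24h. It rose by 0.56 at 12 h (SE 0.11, adjusted p = 8.88e-04), and at 24 h its change was -0.39 (SE 0.11, adjusted p = 0.00816). The 24 h call did not hold with quantile normalization (-0.38, adjusted p = 0.0722) or with the GC and length correction (-0.15, adjusted p = 0.117). Dkk1 was low throughout, at 0.66, 0.86 and 0.63 TPM in ESC_0h and 0.14, 0.18 and 0.33 TPM in noRA_12h (change -0.50, SE 0.11, adjusted p = 0.00297), and was listed at 0 in all 3 noRA_24h libraries. Znrf3, which encodes the partner ligase of RNF43, read 5.21, 4.71 and 6.17 TPM in ESC_0h, 5.97, 4.54 and 5.11 TPM at 12 h and 5.61, 4.74 and 4.93 TPM at 24 h. These ranges overlap and Znrf3 passed the test at neither time (adjusted p = 0.847 and 0.744). Lgr5, a receptor for R-spondins, stayed at 0.183 TPM or below in every time course library and was not tested.

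In all, 1 of the 9 tested genes was higher and 7 were lower in noRA_12h, where 22.0% of 13948 genes were called higher and 20.4% lower. The counts for noRA_24h were also 1 and 7, where 25.4% of genes were called higher and 26.5% lower. The median change of the 9 genes was -0.74 at 12 h and -0.75 at 24 h, beside -0.04 and 0.03 over all genes tested. Sp5, Rnf43 and Dkk1 passed the filter only through 1 group, so these counts and medians describe and support nothing further. Without noRA_12h library 1 all of these 12 h calls held except that of Tcf7 given above, with Lef1 at -0.92, Notum at 0.58 and Axin2 at -1.80.

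**Figure D2:**
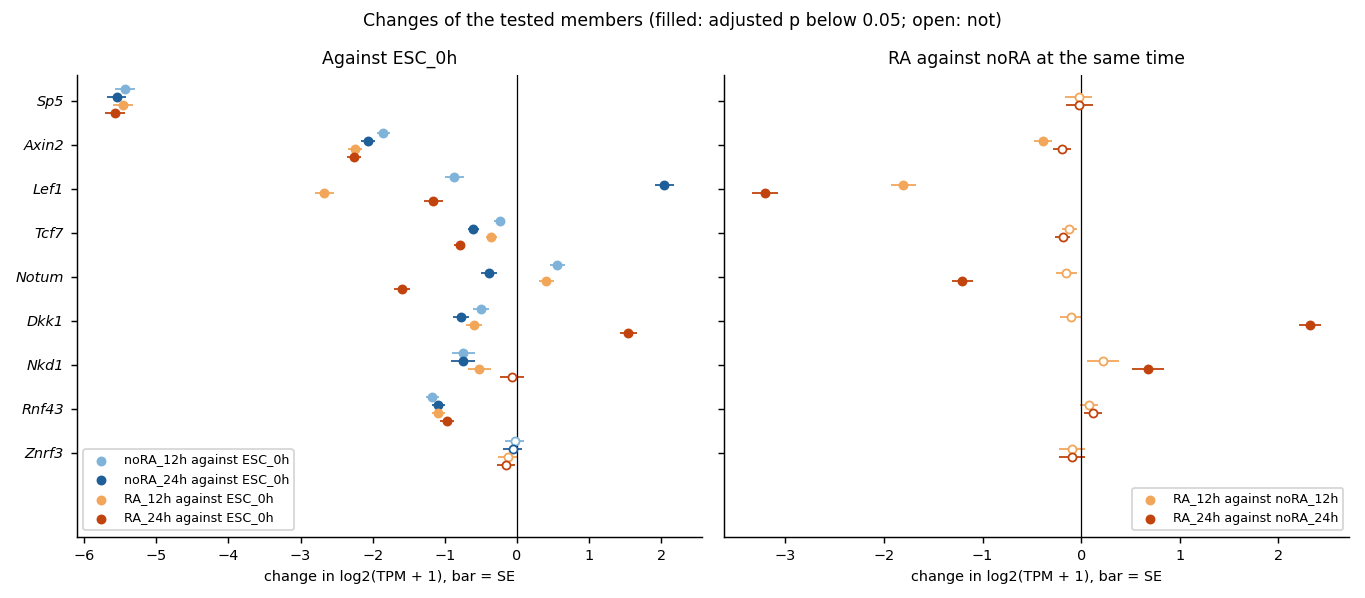
Change in log2(TPM + 1) with its SE (horizontal axis) of the 9 tested genes against ESC_0h (left) and with RA against no RA at the same time (right). Filled points have an adjusted p below 0.05 and open points do not. Sp5 lies between -5.57 and -5.43 in all 4 comparisons with ESC_0h and near 0 in both RA comparisons, while Lef1 changes with both.

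Cells given RA were compared with the same ESC_0h libraries. Those comparisons share their controls with the ones above, so their values are set side by side without a measure of likeness. Sp5 was listed at 0.06, 0.23 and 0.12 TPM in RA_12h and 0.16, 0 and 0 TPM in RA_24h, with changes of -5.46 and -5.57. Axin2 read 11.6, 11.8 and 11.7 TPM in RA_12h and 13.2, 10.2 and 11.4 TPM in RA_24h, with changes of -2.24 and -2.26. Rnf43 was at or below 0.205 TPM in all 6 RA libraries, with changes of -1.09 and -0.97. For these 3 genes, and for Tcf7 and Lef1, each RA library lay below the lowest ESC_0h library. Sp5 and Rnf43 passed the filter on low values only through ESC_0h, so the filter itself required them to differ. Tcf7 changed by -0.36 (adjusted p = 0.00173) and -0.80 (adjusted p = 1.66e-06), and Lef1 by -2.67 (adjusted p = 2.18e-09) and -1.16 (adjusted p = 6.13e-06). Notum changed by 0.41 at 12 h (adjusted p = 0.00640) and -1.59 at 24 h (adjusted p = 4.37e-08), and the 12 h call did not hold with the GC and length correction (0.16, adjusted p = 0.0938).

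Dkk1 was on opposite sides of ESC_0h at the 2 times. It changed by -0.60 at 12 h (adjusted p = 6.70e-04) and 1.54 at 24 h (adjusted p = 1.01e-07). Dkk1 passed the filter on low values only through RA_24h, so the filter itself required RA_24h to differ, and these tests support nothing further. Nkd1 changed by -0.52 at 12 h (adjusted p = 0.0170) and by -0.07 at 24 h, which did not pass the test (adjusted p = 0.744). The 12 h call of Nkd1 was lost with quantile normalization (adjusted p = 0.0932), without ESC_0h library 3 (adjusted p = 0.0560) and without RA_12h library 3 (adjusted p = 0.0824). Znrf3 passed at neither time (adjusted p = 0.423 and 0.357). The counts were 1 higher and 7 lower of 9 in RA_12h, where 27.4% of all genes were higher and 28.3% lower, and 1 higher and 6 lower in RA_24h, where 28.5% were higher and 22.1% lower. Sp5, Rnf43 and Dkk1 each passed the filter only through 1 group, so these counts describe and support nothing further. Without RA_24h library 2 the RA_24h changes were -1.02 for Lef1, -1.44 for Notum, 1.52 for Dkk1 and -2.18 for Axin2, all still called.

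RA was then compared with no RA at the same time, and this difference is called the RA effect. Whether the RA cells also lost LIF and the inhibitors is not in the labels. RA and those factors therefore cannot be told apart in it. At 12 h Lef1 read 1.88, 1.75 and 2.43 TPM with RA, against 10.2, 9.60 and 8.69 TPM without, which is 4.70-fold lower (change -1.80, SE 0.13, adjusted p = 6.39e-07). At 24 h it read 8.74, 6.05 and 8.13 TPM with RA, against 79.7, 80.4 and 73.3 TPM without. That is 10.2-fold lower, with a change of -3.20 (SE 0.13, adjusted p = 8.91e-10). In both arms every 24 h library of Lef1 lay above the 12 h libraries, with means 8.20-fold higher without RA and 3.79-fold higher with RA. The difference between its RA effects, -1.40 (SE 0.18, adjusted p = 4.92e-04), passed the test, and was -1.26 without RA_24h library 2. The RA change was -3.06 at 24 h without RA_24h library 2 and -1.75 at 12 h without noRA_12h library 1. The opposite-strand gene Gm43352 shares 1208 exonic bases with Lef1, and no level is listed under that name in the time course. As strand is not stated for the counting, reads from both cannot be told apart. Coverage was set against FPKM by the most common ratio in each time course library. Only 10.1% to 10.8% of genes above 1 FPKM lay at that ratio. The deposited coverage of Lef1 was 0.0776 to 0.0897 of what that ratio implies, while Sp5 and Dkk1 stood at 1. Nkd1 (0.0586 to 0.0796) and Rnf43 (0.125 to 0.172) were low as well. The medians were 0.524 for Axin2, 0.564 for Tcf7, 0.696 for Znrf3 and 0.798 for Notum. On coverage scaled to the same total in each library, the RA changes of Lef1 were -0.91 at 12 h and -2.61 at 24 h, both still called. Of 6 fibroblast markers (Col1a1, Col1a2, Col3a1, Thy1, Dcn and Postn), Thy1 was lower with RA at both times, as Lef1 was, with means of 11.1 and 4.58 TPM at 12 h and 13.3 and 2.22 TPM at 24 h. Col1a1 and Col1a2 went the other way at 24 h, the latter from 0.505 to 0.692 TPM. The sum of the 6 was 11.5 to 14.5 TPM in noRA_12h, 4.53 to 7.98 TPM in RA_12h, 15.0 to 18.1 TPM in noRA_24h and 5.05 to 5.94 TPM in RA_24h. At most 2 of the 6 averaged 1 TPM or more in any time course group, none was at 0 in a whole group of the time course, and their part in the result was not tested.

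Axin2 was lower with RA at 12 h, where its RA libraries (11.6 to 11.8 TPM) all lay below those without RA (14.4 to 16.3 TPM). The change was -0.39 (SE 0.09, adjusted p = 0.0106), or -0.45 without noRA_12h library 1 (adjusted p = 0.0108). With quantile normalization it was -0.31 with an adjusted p of 0.208. At 24 h Axin2 overlapped between the arms, at 10.2 to 13.2 TPM with RA and 12.6 to 14.1 TPM without (change -0.20, adjusted p = 0.122). It passed there without RA_24h library 1 (-0.29, adjusted p = 0.0339) and with the GC and length correction (-0.38, adjusted p = 0.00188). Tcf7 had changes of -0.12 (adjusted p = 0.333) at 12 h and -0.19 (adjusted p = 0.0768) at 24 h. The Tcf7 calls also turned with the correction (adjusted p = 0.0454 and 0.00643) and, at 24 h, without RA_24h library 3 (adjusted p = 0.0498). Sp5, Rnf43 and Znrf3 passed at neither time, with changes between -0.10 and 0.12.

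Notum read 57.7, 59.5 and 54.7 TPM with RA at 12 h, against 61.6, 69.3 and 60.8 TPM without (change -0.15, adjusted p = 0.377). With the GC and length correction that change was -0.36 with an adjusted p of 0.00456. At 24 h it read 14.6, 10.8 and 15.8 TPM with RA, against 33.5, 33.0 and 31.3 TPM without. The groups did not overlap, the mean was 2.37-fold lower with RA, and the change was -1.20 (SE 0.11, adjusted p = 1.76e-06), or -1.05 without RA_24h library 2. The difference between the RA effects was -1.05 (SE 0.15, adjusted p = 9.46e-04). The opposite-strand gene Notumos shares 708 exonic bases with Notum and read 2.18 to 3.01 TPM in noRA_24h and 0.405 to 1.11 TPM in RA_24h. Reads from Notum and Notumos cannot be told apart either.

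Dkk1 was at 0.23, 0.18 and 0 TPM with RA at 12 h, near its level without RA (adjusted p = 0.585). At 24 h it read 3.64, 4.13 and 4.20 TPM with RA and was listed at 0 in all 3 libraries without RA, so no fold is given (adjusted p = 5.03e-09). Dkk1 passed the filter on low values only through RA_24h, so the filter itself required RA_24h to differ, and these tests support nothing further. Nkd1 read 2.19, 2.07 and 1.77 TPM with RA at 24 h, against 0.96, 0.47 and 1.30 TPM without. It was higher in each RA library, with a change of 0.68 (SE 0.16, adjusted p = 0.00622), or 0.66 without RA_24h library 2 (adjusted p = 0.0119). With the GC and length correction it was 0.49 with an adjusted p of 0.0631, and on scaled coverage it was 0.15 (adjusted p = 0.0264). At 12 h the arms overlapped for Nkd1 (change 0.22, adjusted p = 0.400), and its 2 RA effects were not shown to differ (adjusted p = 0.310).

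Dkk1 was higher with RA at 24 h and not at 12 h. Markers of primitive endoderm (Gata6, Gata4, Sox17, Pdgfra, Dab2 and Lama1), taken as a sum, were higher with RA at both times. Their sum was 68.0 to 81.3 TPM in ESC_0h, of which Lama1 gave a mean of 72.6 TPM, 7.81 to 9.77 TPM in noRA_12h and 5.22 to 5.99 TPM in noRA_24h. It was 26.4 to 30.8 TPM in RA_12h and 138 to 155 TPM in RA_24h, where all 6 averaged at least 1 TPM, against 2 of 6 in RA_12h, noRA_24h and ESC_0h and 1 of 6 in noRA_12h. None was at 0 in a whole group. Trophoblast markers (Elf5, Tfap2c, Gata3, Krt8 and Krt18) summed to 46.4 to 50.2 TPM in noRA_24h, with 3 of 5 at 1 TPM or more, and to 87.5 to 112 TPM in RA_24h, with 4 of 5. ESC_0h overlapped RA_24h, at 80.2 to 89.0 TPM. The 12 h groups overlapped too, at 46.6 to 60.9 TPM in noRA_12h and 58.2 to 61.5 TPM in RA_12h. The part of these markers in the Dkk1 and Notum results was not tested, and in bulk RNA a share of cells and a level per cell cannot be told apart.

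Of the 9 tested genes, none was higher and 2 were lower with RA at 12 h, where 10.2% of all genes were higher and 7.19% lower. At 24 h 2 were higher and 2 lower, where 22.8% of all genes were higher and 12.5% lower. The difference between the RA effects was called higher for 1 and lower for 2 of the 9, beside 4.17% and 2.68% of all genes. The counts at 24 h and for the difference include Dkk1, which passed the filter on low values only through RA_24h. They describe and support nothing further. The share of higher genes among all called depended on the scaling. It was 58.7% at 12 h and 43.2% with the GC and length correction, 64.7% and 52.7% at 24 h, and for the difference 60.8% and, with quantile normalization, 46.6%. At 24 h it was 52.4% without RA_24h library 2.

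**Figure D3:**
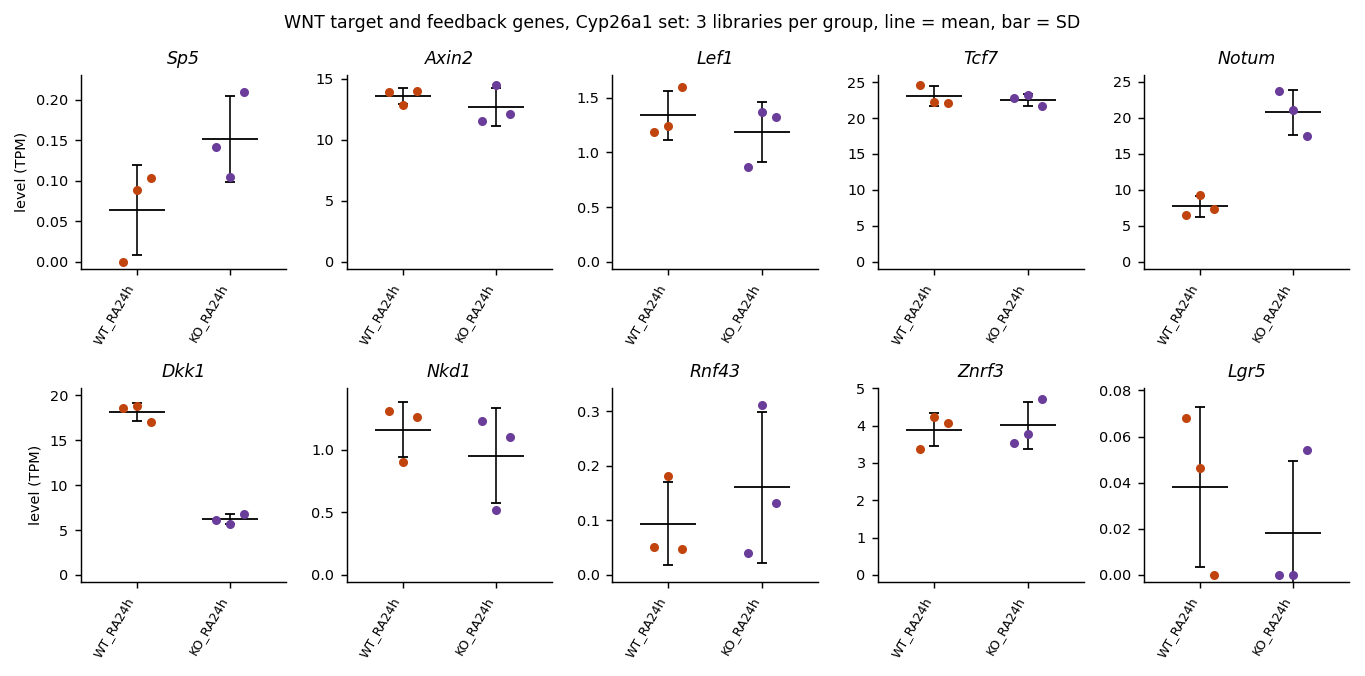
Level in TPM (vertical axis, a separate linear scale per gene) of the 10 genes in each library of the Cyp26a1 set (points), with the group mean (line) and SD (bar), n = 3. Notum is above and Dkk1 below the wild type in every knockout library, and the groups overlap for Axin2, Lef1, Tcf7, Nkd1, Rnf43, Znrf3 and Lgr5.

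The Cyp26a1 set asked what loss of the RA-degrading enzyme changed in cells given RA for 24 h. Both secreted inhibitors differed and in opposite directions. Notum read 6.49, 9.33 and 7.37 TPM in the wild type and 23.7, 21.1 and 17.4 TPM in the knockout. The knockout mean was 2.69-fold higher, with no overlap between the groups (change 1.32, SE 0.16, adjusted p = 0.00598). Dkk1 read 18.6, 18.8 and 17.0 TPM in the wild type and 6.09, 5.70 and 6.79 TPM in the knockout, which is 2.93-fold lower, again with no overlap (change -1.42, SE 0.10, adjusted p = 0.00101). Without KO_RA24h library 3 the changes were 1.44 and -1.48, and over all 6 ways to leave out 1 library the adjusted p reached at most 0.0374 for Notum and 0.0154 for Dkk1.

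The other tested genes did not pass in the knockout. Axin2 read 14.0, 12.9 and 14.0 TPM in the wild type and 11.5, 14.5 and 12.2 TPM in the knockout (adjusted p = 0.668). Lef1 read 1.18 to 1.60 TPM and 0.869 to 1.37 TPM (adjusted p = 0.761), and Tcf7 22.1 to 24.7 TPM and 21.7 to 23.3 TPM (adjusted p = 0.893). Nkd1 read 0.907 to 1.31 TPM and 0.519 to 1.23 TPM (adjusted p = 0.681), and Znrf3 3.38 to 4.23 TPM and 3.54 to 4.70 TPM (adjusted p = 0.943). Sp5, Rnf43 and Lgr5 stayed at or below 0.312 TPM and were not tested. Thus 1 of 7 tested genes was higher and 1 lower, where 3.34% of 12848 genes were called higher and 6.65% lower. The higher share among all called genes was 33.4%, and it was 48.4% with median-of-ratios scaling and 45.3% with quantile normalization. The summed primitive endoderm markers, like Dkk1, were lower in the knockout, at 287 to 308 TPM in the wild type and 117 to 123 TPM in the knockout, with all 6 at 1 TPM or more in both. Trophoblast markers summed to 137 to 146 and 101 to 114 TPM, and the part of both lists in these results was not tested.

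Dkk1 and Notum had opposite signs with RA at 24 h in the time course and in the knockout. With RA at 24 h Dkk1 was higher and Notum lower than without RA, and in the knockout given RA Dkk1 was lower and Notum higher than in the wild type given RA. These comparisons share no libraries. In the time course Dkk1 passed the filter on low values only through RA_24h, so its sign there supports nothing further. Neither a dose series of RA nor knockout cells without RA were analysed here.

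The order of levels was taken gene by gene from the time course means. Axin2 was ordered ESC_0h, noRA_12h, noRA_24h, RA_12h and RA_24h, and of the neighbours in that order only RA_12h and RA_24h overlapped (11.7 ± 0.113 and 11.6 ± 1.54 TPM, SD, n = 3). Tcf7 was ordered ESC_0h, noRA_12h, RA_12h, noRA_24h and RA_24h with no overlap between neighbours, from 75.0 ± 5.02 to 42.8 ± 2.90 TPM. Notum was ordered noRA_12h, RA_12h, ESC_0h, noRA_24h and RA_24h, from 63.9 ± 4.69 to 13.7 ± 2.59 TPM, also without overlap. Not all of these neighbours were called different. Tcf7 with RA against no RA did not pass at 12 h (adjusted p = 0.333) or 24 h (adjusted p = 0.0768), nor did Notum at 12 h (adjusted p = 0.377). Lef1 was ordered noRA_24h (77.8 ± 3.90 TPM), ESC_0h, noRA_12h, RA_24h and RA_12h (2.02 ± 0.360 TPM), with overlap between noRA_12h and RA_24h. All 5 groups overlapped in turn for Znrf3, from 5.36 ± 0.740 in ESC_0h to 4.72 ± 0.745 TPM in RA_24h. These are TPM levels, scaled for length, and on them Tcf7, Axin2 and Sp5 were the most abundant of the 10 in ESC_0h. On the deposited coverage the order in ESC_0h began with Sp5 (69.0), Tcf7 (58.9), Notum (46.7) and Axin2 (43.2), so it depends on the measure.

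The genes most like Sp5, Axin2 and Lef1 in the time course were taken as the 5 with the highest Pearson r of log2(TPM + 1) over the 15 libraries, among 9123 genes with a mean of at least 5 TPM. The libraries form 5 groups that every gene shares, so r describes a pattern of group means. For Sp5 they were Hspb8, Nup210, Litaf, Cdkn1a and Eef2k, with r from 0.988 to 0.992. Cdkn1a, the gene for the cell cycle inhibitor p21, had means of 255 TPM in ESC_0h and 50.8 to 63.8 TPM in the other groups. For Axin2 they were Hexa, Hk1, Stat3, Nup210 and Hspb8 (0.985 to 0.989). Stat3, the gene for the factor that LIF activates, had means of 79.3 TPM in ESC_0h and 20.8 to 28.1 TPM elsewhere. The genes most like Lef1 were Ift52, Pfkp, Gclm, Hmox1 and Card19, with lower r (0.935 to 0.949). Card19 had its highest mean in noRA_24h (67.1 TPM) and its lowest in RA_12h (18.6 TPM), as Lef1 had.

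**Figure D4:**
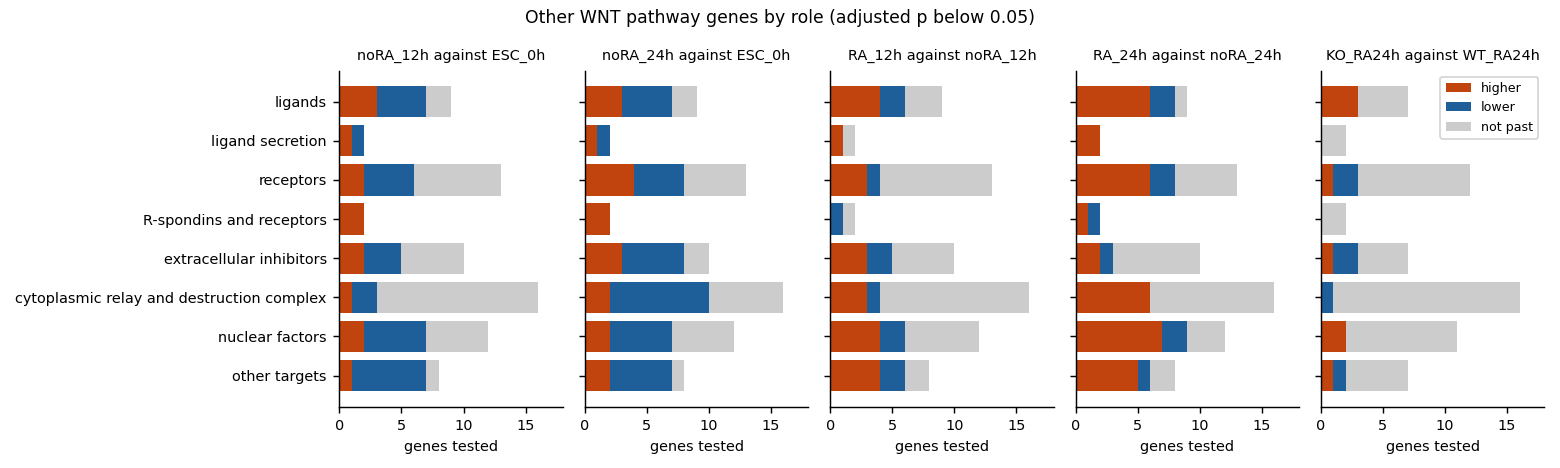
Number of tested WNT pathway genes outside the 10 (horizontal axis, genes) by role (vertical axis) that were called higher, called lower or not called in 5 comparisons. Among nuclear factors, 7 of 12 were higher with RA at 24 h, beside 22.8% of all genes. Of the cytoplasmic genes, 13 of 16 did not pass at 12 h without RA, where 22.0% of all genes were called higher and 20.4% lower.

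The rest of the pathway was read from a list of 98 symbols in 8 roles, of which 97 are listed and 72 could be tested in the time course. Of these, 14 were higher and 25 lower in noRA_12h, and 19 were higher and 32 lower in noRA_24h, with medians of -0.14 and -0.20 beside -0.04 and 0.03 over all genes. At 12 h that is 19.4% higher and 34.7% lower, beside 22.0% and 20.4% of all genes. At 24 h it is 26.4% and 44.4%, beside 25.4% and 26.5%, so the higher shares are near those over all genes. Among ligands, Wnt7b rose by 2.17 at 12 h (0.494 ± 0.140 to 5.74 ± 0.715 TPM) and Wnt6 by 2.17. Porcn, which encodes the enzyme that puts the lipid on WNT ligands, went from 6.92 ± 1.94 TPM in ESC_0h to 59.4 ± 3.77 TPM at 12 h and 80.7 ± 1.48 TPM at 24 h (changes 2.96 and 3.40). The receptor genes split, with Fzd10 down from 51.7 ± 5.02 to 7.73 ± 0.242 and 1.87 ± 0.211 TPM (changes -2.59 and -4.20) and Fzd7 up by 1.72 and 1.95. Lgr4, a relative of Lgr5, rose by 1.41 and 2.17 and reached 33.9 ± 2.47 TPM at 24 h. Of the inhibitors, Sfrp1 fell by 2.48 at 24 h and Dkk3 fell by 2.13 at 12 h.

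Of the nuclear factors, 2 of 12 were higher and 5 lower at each time without RA. Over all genes, 22.0% were higher and 20.4% lower at 12 h, and 25.4% and 26.5% at 24 h. Tle4, a corepressor that binds TCF proteins, rose by 2.09 at 12 h and 2.43 at 24 h, and Tcf7l1, the gene for a TCF that mostly represses, rose by 0.99 at 12 h. Of 8 other known targets, 1 was higher and 6 were lower at 12 h, beside the same 22.0% and 20.4% of all genes. Cdx1 went from 64.5 ± 4.41 TPM in ESC_0h to 3.66 ± 0.768 TPM at 12 h and 0.691 ± 0.0443 TPM at 24 h, while Myc went from 4.73 ± 0.805 to 69.2 ± 3.78 and 55.5 ± 5.36 TPM (changes 3.62 and 3.31). Against ESC_0h, 23 of the 72 were higher and 27 lower in RA_12h, and 25 higher and 23 lower in RA_24h, beside 27.4% and 28.3% of all genes, and 28.5% and 22.1%. That is 31.9% and 37.5% of the list in RA_12h, and 34.7% and 31.9% in RA_24h. Without noRA_12h library 1 the changes named for noRA_12h were all still called, with Lgr4 at 1.18 in place of 1.41.

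With RA against no RA, 12 h brought 22 of the 72 pathway genes up and 11 down, while 24 h brought 35 up and 9 down. At 12 h that is 30.6% higher and 15.3% lower, beside 10.2% and 7.19% of all genes, and at 24 h 48.6% and 12.5%, beside 22.8% and 12.5%. The median was 0.07 at 12 h and 0.26 at 24 h, beside -0.01 and 0.02 over all genes. Without RA_24h library 2, 15 rather than 9 were lower at 24 h, and with the GC and length correction 17 rather than 11 were lower at 12 h. Porcn was higher with RA at both times, with 214 ± 1.93 TPM at 12 h, then 310 ± 37.0 TPM (changes 1.84 and 1.92), as was Wnt8a (1.69 and 1.81). But Wnt8a passed the filter on low values only through RA_12h and RA_24h. The filter itself thus required a difference, and the tests of Wnt8a support nothing further. Lgr4 fell by 1.44 and 1.98. Sfrp5, a secreted WNT-binding inhibitor, rose by 1.31 and 3.21 and reached 20.3 ± 2.31 TPM at 24 h. Dkk4, a relative of Dkk1, was listed at 0 in all noRA_12h libraries and averaged 1.66 ± 0.460 TPM in RA_12h. It passed the filter on low values only through RA_12h, so the filter itself required a difference and its test supports nothing further. Sp8 likewise passed only through RA_24h. Counts over the pathway list include such genes, so they describe and support nothing further.

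Among targets outside the 10, Cdx1 is also known as a direct target of RA receptors. It was higher with RA at both times, at 104 ± 4.26 TPM against 3.66 ± 0.768 TPM at 12 h and 97.0 ± 11.3 TPM against 0.691 ± 0.0443 TPM at 24 h (changes 4.50 and 5.85). Ccnd1, the gene for cyclin D1, fell by 2.05 at 24 h, from 105 ± 2.74 to 24.5 ± 3.03 TPM. Of the nuclear factors, Tle4 fell by 1.11 at 12 h and Tle5 rose by 1.44 at 24 h. The RA effect differed between the times for 14 of the 72 genes, 10 upward (13.9%) and 4 downward (5.56%), beside 4.17% and 2.68% of all genes. Sfrp5 (1.90, adjusted p = 3.69e-05) and Cdx1 (1.35, adjusted p = 2.52e-04) were among those upward. Without RA_24h library 2 the changes named for RA at 24 h were all still called, with Porcn at 2.03, Sfrp5 at 3.29, Cdx1 at 5.95 and Ccnd1 at -1.96.

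In the knockout, 8 of 64 tested pathway genes were higher and 6 lower, with a median of -0.15 beside -0.05 over all genes. That is 12.5% and 9.38% of the list, beside 3.34% and 6.65% of all genes. With the replicate block 7 were higher and 4 lower, and the calls of Tcf7l1 (0.35, adjusted p = 0.0661) and Nkd2 (-0.63, adjusted p = 0.0732) were among those lost. Fzd10 was higher, at 18.3 ± 0.912 TPM against 10.8 ± 0.669 TPM (change 0.71, adjusted p = 0.00601). Tle4 changed by 0.51 (adjusted p = 0.00781), and by 0.50 without WT_RA24h library 1 (adjusted p = 0.0550). Wnt7b changed by 0.90 (adjusted p = 0.0107), with an adjusted p of 0.0647, 0.0545 and 0.0574 without WT_RA24h libraries 1, 2 and 3. The counts rested on single libraries, from 1 higher and 0 lower without WT_RA24h library 1 to 10 lower without KO_RA24h library 3.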

How the data were processed

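RNA-seq libraries were taken as gene abundance tables, 1 per library. The submitters' processing notes name HISAT2, StringTie and mm10. Their versions were not given in the sources used. Main values are the deposited TPM, which carry a scaling for length and library size, per the file headers. The deposited FPKM values and the deposited coverage (signal, mean read depth per base) served as alternatives only. No counts were used. The 21 libraries were grouped by their titles. The p-values reflect the spread among these samples alone, and that spread may be technical.

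A gene was tested in a set where 3 or more of its libraries reached 1 TPM. The log2(TPM + 1) values were fitted by limma 3.58.1 (R 4.3.3, eBayes with a trend), 15 time course libraries in 1 model and 6 in another, with Benjamini-Hochberg adjustment over all genes. The fit was tested on simulated data. Aligned bases were derived from the modal coverage/FPKM ratio of each library. Annotation for places, overlaps, GC content and length was GENCODE M21, and promoters came from RefSeq (GRCm38.p6). Tables and figures used Python 3.11.15, pandas 2.3.3, numpy 2.4.6 and matplotlib 3.10.9.

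Deviations from group means correlated above 0.1 in 3 of 3 same-numbered pairs of the Cyp26a1 set (0.189 to 0.536). They did so in 2 of 6 differently numbered pairs (-0.461 to 0.268). Its numbers may thus be pairing, a sign from the data and not from the labels. The tests reported there are without the block, and its value is given where it ends a call. In the time course 7 of 30 same-numbered pairs correlated above 0.1 (-0.837 to 0.415), so its numbers were not read as pairing.

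The genes, the pathway and marker lists and the tests were chosen with earlier results of these data known. All 10 genes are described. Pathway genes named are among the up to 2 per role with the largest called change in a comparison. Alternatives were median-of-ratios scaling, FPKM in place of TPM, quantile normalization, a fit without the trend, a stricter filter (mean 5 TPM or more) or none, a smaller pseudocount (0.1), a replicate block, a GC and length correction (splines with 4 degrees of freedom) alone and with the block, only the groups compared, and each library left out. Scaled coverage was added after seeing the data.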

Additional observations from a re-analysis of the deposited data

Results flagged for a closer look

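The RA effect at 24 h was compared with that at 12 h by the interaction test in limma, adjusted over all genes tested. The difference was -1.40 for Lef1 (adjusted p = 4.92e-04) and -1.05 for Notum (adjusted p = 9.46e-04). For Dkk1 it was 2.42 (adjusted p = 1.51e-06), but Dkk1 passed the filter on low values only through RA_24h, so the filter itself required a difference and the test supports nothing. Its size also depends on the pseudocount, since Dkk1 was listed at 0 in all noRA_24h libraries. Leaving out each of the 12 libraries in turn gave -1.49 to -1.26 for Lef1 and -1.15 to -0.90 for Notum, with every adjusted p of these at 0.00405 or below.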

How the results depend on the processing

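The changes of the tested genes, over all comparisons and alternative settings, gave 1274 values. Of these, 1247 kept the side of the threshold, 18 lost the call and 9 gained one. No change called in either fit reversed, but some that were called in neither changed sign. With 1 library left out, the change of Znrf3 in noRA_12h against ESC_0h ran from -0.12 to 0.05. The replicate block changed no call of the 10 genes (70 of 70). With the replicate block, 396 genes were higher and 766 lower in the knockout instead of 429 and 855. For the named pathway genes, 115 of 1988 alternatives lost the call and none reversed.

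With a mean of at least 5 TPM low genes were not tested. The genes lower were then 4 in noRA_12h, noRA_24h and RA_12h against ESC_0h, and those higher 0 in RA_24h against ESC_0h, in RA_24h against noRA_24h and for the difference between the RA effects. The pathway genes higher were then 9, 10, 12 and 11 in noRA_12h, noRA_24h, RA_12h and RA_24h against ESC_0h, with 17 lower in RA_12h. They were 10 and 18 with RA against no RA at 12 h and 24 h, 2 lower for the difference, and 5 higher in the knockout. The GC and length correction, alone or with the replicate block, left 0 genes higher in RA_12h against ESC_0h, and 1 higher and 4 lower with RA at 24 h. Alone it gave 4 genes and 17 pathway genes lower with RA at 12 h. Quantile normalization gave 1 gene lower with RA at 12 h, 6 pathway genes higher for the difference and 1 lower in the knockout. The cause was not tested.

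For the difference, a pseudocount of 0.1 left 2 pathway genes lower. In the knockout, pathway genes higher were 4 with no filter and 5 with FPKM, and those lower 3 with median-of-ratios scaling and 3 with FPKM. Leaving out 1 library gave 1 to 12 higher and 0 to 10 lower there, and 8 to 15 lower with RA at 24 h.

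Over all genes, the GC and length correction gave 1462 higher and 1919 lower with RA at 12 h (1428 and 1003 as reported), or 1275 and 1605 with the replicate block, and 2707 and 2427 at 24 h (3178 and 1737). Without RA_24h library 2 there were 3948 and 3583 at 24 h, and 1075 upward for the difference (581), where quantile normalization gave 279 upward and 320 downward (374 downward as reported). Upward genes for the difference were 383 with a mean of at least 5 TPM and 384 to 385 with median-of-ratios scaling, without RA_12h library 3 or without RA_24h library 1. In RA_24h against ESC_0h a mean of at least 5 TPM gave 2587 higher (3978). In the knockout there were 524 and 558 with median-of-ratios scaling, 395 and 477 with quantile normalization, and 116 to 1000 higher and 198 to 2156 lower when 1 library was left out, with the most without KO_RA24h library 3. Read counts were not used, so the counting error of genes near 0 TPM is not known.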
